A study of Mus musculus with 1279 samples.

Results

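The 9 genes of lipid transport and storage were followed through the mesenchymal cells of the adult mouse heart: Apoe, Apod, Lpl, Pltp, Abca1, Lrp1, Fabp3, Fabp4 and Fabp5. They were chosen by name, and they are 9 of the 46517 genes in the count table. The table held 1279 single cells from hearts of male mice aged 10 to 20 weeks, each cell being a separate full-length cDNA library. Cells came from 4 strains. C57BL6 mice carried no reporter, and their cells (45.4% of all) were sorted with antibodies as positive for PDGFRα or PDGFRβ and negative for CD31, an endothelial surface protein. The PdgfrbGFP (28.5% of cells), Cspg4dsRED (12.7%) and Acta2GFP (13.4%) mice carried a fluorescent reporter for the gene in their name, which was used for the sort, and elastase was added to the dissociation of Acta2GFP hearts. Each reporter strain was collected on 1 plate and C57BL6 on 3, so that strain, sort, dissociation and plate cannot be told apart. The labels name no animal. The authors divided the cells into 8 clusters: clusters 1 to 5 are fibroblasts (926 cells), with cluster 1 placed in the valves, and clusters 6 to 8 are mural cells (353 cells), the smooth muscle cells and pericytes that wrap blood vessels.

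The genes cover successive steps of lipid handling outside and inside the cell. Apoe encodes apolipoprotein E, a secreted protein that carries cholesterol and lipids in lipoproteins, and Apod encodes apolipoprotein D, a lipocalin that binds small hydrophobic molecules. Lipoprotein lipase (Lpl) splits the triglycerides of circulating lipoproteins, and Pltp transfers phospholipids between lipoproteins. ABCA1 exports cholesterol from the cell, and LRP1 is a large endocytic receptor that takes up Apoe-rich particles among many other ligands. The fatty acid-binding proteins carry fatty acids inside the cell: Fabp3 is the heart-muscle form, Fabp4 is known from adipocytes and capillary endothelium, and Fabp5 is found in skin and in many other cell types.

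The sequences directly before the start sites of 3 genes that were higher in fibroblasts are shown here, because these genes moved together between the 2 classes of cells (RefSeq, GRCm38.p6, all on the minus strand, 250 bases, 5′ to 3′). The RefSeq table matched 6 of the 9 genes, and of several Apoe start sites the one at the gene's annotated end is shown. Capitals mark any match, on either strand, to the TATA box TATAAA, the CAAT box CCAAT or the GC box GGGCGG, and no matches overlap in these windows.
Apoe, chr7:19699189-19699438: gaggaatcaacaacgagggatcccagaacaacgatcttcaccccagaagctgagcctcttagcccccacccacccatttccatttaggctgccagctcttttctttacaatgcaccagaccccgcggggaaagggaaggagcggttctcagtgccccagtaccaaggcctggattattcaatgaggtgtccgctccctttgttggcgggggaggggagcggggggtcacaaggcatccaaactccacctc
Apod, chr16:31314809-31315058: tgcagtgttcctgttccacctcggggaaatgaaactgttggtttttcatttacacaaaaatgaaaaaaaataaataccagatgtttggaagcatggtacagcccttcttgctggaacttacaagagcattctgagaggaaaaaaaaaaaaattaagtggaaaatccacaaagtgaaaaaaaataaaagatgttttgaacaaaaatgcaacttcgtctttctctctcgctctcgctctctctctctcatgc
Lrp1, chr10:127621149-127621398: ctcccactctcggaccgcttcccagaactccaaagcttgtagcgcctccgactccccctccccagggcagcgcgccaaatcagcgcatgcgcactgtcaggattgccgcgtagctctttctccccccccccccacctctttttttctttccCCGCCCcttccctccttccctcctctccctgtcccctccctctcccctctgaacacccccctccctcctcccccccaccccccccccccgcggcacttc
The Lrp1 window held 1 GGGCGG element and the Apoe and Apod windows shown held none of the 3. Of 2 further Apoe windows, the one before the start site 567 bases inside the gene held 2 TATAAA matches. Among 32817 windows of the same length, 12.4% held TATAAA, 33.8% held CCAAT and 32.7% held GGGCGG. The windows differed in composition: 67.2% of the Lrp1 bases were G or C, against 57.2% for Apoe, 36.4% for Apod and a median of 52.4% over all windows.

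Levels are given as counts per 1000000 gene counts (CPM) after summing the cells of a cluster within a strain, so that a strain and not a cell is the replicate. Sums of 3 or more cells were available for 27 combinations of cluster and strain, with 810367 to 50137989 counts each. The median cell held 274504 counts and 4045 genes. The marker lists placed the clusters as follows. The fibroblast markers (Pdgfra, Col1a1, Col1a2, Dcn and Lum) summed to 10590 to 14490 CPM in clusters 1 to 5. The smooth muscle markers (Acta2, Myh11, Tagln and Cnn1) summed to 9946 to 15720 CPM in clusters 6 and 7. The pericyte markers (Rgs5, Kcnj8, Abcc9 and Vtn) averaged 17300 ± 7201 CPM in cluster 8 (SD, n = 4 strains) and 4773 ± 3643 CPM in cluster 7 (SD, n = 3 strains). Cluster 6 stood apart from its class, since the fibroblast markers there summed to 3108 CPM in Acta2GFP, 3223 CPM in Cspg4dsRED and 12490 CPM in the 3 cells of C57BL6. The comparison of fibroblasts with mural cells is therefore also given without cluster 6. In sums of this kind, fewer cells that express a gene and less RNA per cell cannot be told apart.

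**Figure D1:**
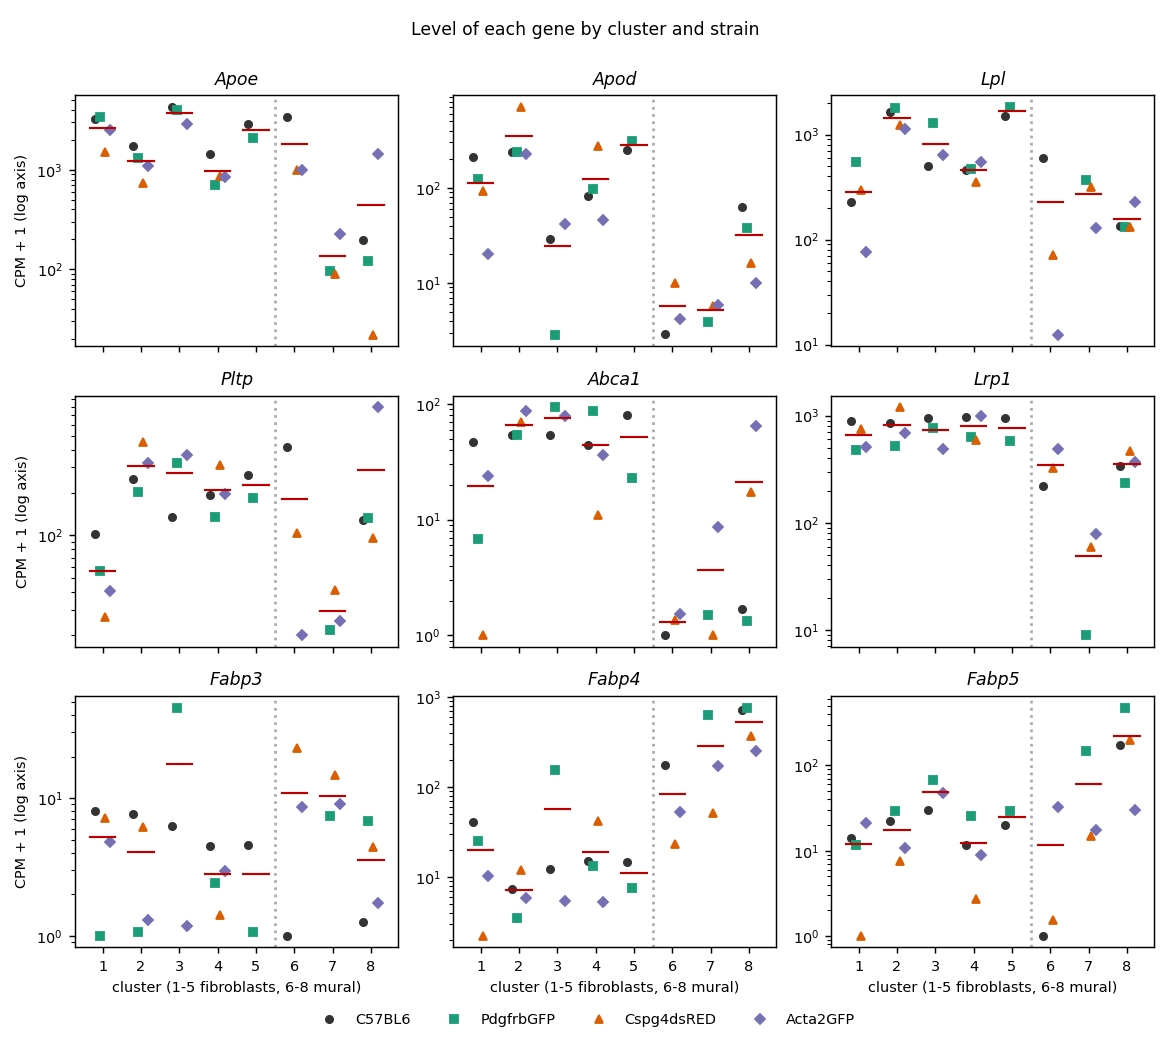
Level of the 9 genes in each cluster (x axis) as CPM + 1 on a log axis, with 1 point per strain and a red line at the mean over strains; the dotted line separates fibroblasts from mural cells. Apoe lay above 700 CPM in all fibroblast sums, and Fabp4 was highest in cluster 8, where its 4 strains lay between 253.6 and 762 CPM.

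Apoe was the most abundant of the 9 genes per kilobase of exon in each fibroblast cluster, and it was found in nearly all cells. Cluster 3 held 3742 ± 771 CPM (SD, n = 3 strains), cluster 1 held 2668 ± 861 CPM (n = 4) and cluster 5 held 2506 ± 560 CPM (n = 2). Cluster 2 had 1217 ± 411 CPM and cluster 4 had 971 ± 333 CPM (n = 4 each). Cluster 3 exceeded cluster 1 in 3 of 3 shared strains, by 0.28 ± 0.12 on the log2 scale (SD, pseudocount of 1 CPM), whereas clusters 2 and 4 did not differ beyond their spread. Among mural cells, the Apoe level of cluster 6 was 1803 ± 1404 CPM and that of cluster 7 was 135.8 ± 76.6 CPM (n = 3 each). In cluster 8 it was 20.9 CPM in Cspg4dsRED, intermediate in PdgfrbGFP, 196.7 CPM in C57BL6 and 1441 CPM in the 15 cells of Acta2GFP. Those 15 cells also differed from the other strains of cluster 8 in markers. Their pericyte markers summed to 6942 CPM against 18860 to 23600 CPM, their smooth muscle markers to 4033 CPM against 201.1 to 1170 CPM and their fibroblast markers to 3334 CPM against 960 to 1370 CPM. The part of these cells in the Apoe level of Acta2GFP was not tested.

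Apod was highest in clusters 2 and 5 and low in all mural sums. It reached 710 CPM in the 8 cells of Cspg4dsRED in cluster 2, against 226.3 to 238.9 CPM in the other 3 strains, and averaged 280.2 ± 44.2 CPM over the C57BL6 and PdgfrbGFP sums of cluster 5. Cluster 4 held 123.5 ± 101.1 CPM, cluster 1 held 110.9 ± 78.1 CPM (n = 4 each) and cluster 3 only 23.6 ± 19.9 CPM (n = 3). Apod was unevenly spread over cells. After each cell was thinned to 50000 counts, 58.4% of cluster 2 cells had an Apod count (95% Wilson interval 51.8 to 64.8%; 79.5% before thinning), and the median cell of cluster 2 held 14.3 CPM while its 90th percentile held 858 CPM.

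Lpl was highest in fibroblast clusters 5 and 2. Their levels of 1671 ± 245.7 CPM (n = 2) and 1450 ± 320 CPM (n = 4) did not differ beyond their spread. Lower levels of 807 ± 420 CPM were found in cluster 3 (n = 3), of 458 ± 81.4 CPM in cluster 4 and of 286.5 ± 195.4 CPM in cluster 1 (n = 4 each). Cluster 2 exceeded cluster 3 in 3 of 3 strains, by 1.01 ± 0.63 on the log2 scale (SD). Among mural sums, cluster 7 held 273.4 ± 127.3 CPM (n = 3) and cluster 8 held 156.3 ± 47.5 CPM (n = 4). The median cell showed the same split, at 1520 CPM for cluster 2 and 1438 CPM for cluster 5 against 23.9 CPM for cluster 1.

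Pltp and Abca1 act on phospholipid and cholesterol transfer. For Pltp, cluster 2 held 304 ± 108.1 CPM, cluster 4 held 207.6 ± 73.3 CPM and cluster 1 held 55.6 ± 32.5 CPM (n = 4 each). In cluster 8 it lay at 95.3 CPM in Cspg4dsRED, 127.8 CPM in C57BL6, 132.1 CPM in PdgfrbGFP and 793 CPM in Acta2GFP. Pltp therefore showed the same exception as Apoe in the 15 cells of Acta2GFP, where its most abundant cell carried 23.3% of the counts. Pltp shares 495 exon bases (19.3% of its exons) with Ctsa on the opposite strand, and since full-length libraries of this type carry no strand, reads of that stretch cannot be assigned with certainty. Abca1 held 43.5 to 74.3 CPM on average in clusters 2 to 5 and 18.6 ± 20.5 CPM in cluster 1. It was found in 24.5% of cluster 4 cells after thinning (19.4 to 30.4%). In cluster 6 an Abca1 count was found in 10.3% of the 39 cells before thinning, and the sums there held at most 0.54 CPM. Intervals of this kind cover counting error only.

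Lrp1 was level across the fibroblasts. Its 5 fibroblast clusters averaged between 659 and 817 CPM, and no neighbouring pair of them differed beyond the spread over strains. Cluster 8 held 354 ± 94.7 CPM (n = 4) and cluster 6 held 344.6 ± 133.5 CPM (n = 3). Cluster 7 was lowest, with 76.9 CPM in Acta2GFP, 58.7 CPM in Cspg4dsRED and 7.85 CPM in PdgfrbGFP. The share of cells with an Lrp1 count after thinning was 38.5% in cluster 7 (30.2 to 47.5%) and 64.1% in cluster 8 (57.2 to 70.5%), against 84.3 to 97.3% in clusters 1 to 5.

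Among the fatty acid-binding proteins, Fabp4 and Fabp5 had their highest levels in cluster 8, and Fabp3 was low throughout. Fabp4 in cluster 8 was 253.6 CPM in Acta2GFP, 365 CPM in Cspg4dsRED, 723 CPM in C57BL6 and 762 CPM in PdgfrbGFP. In cluster 7 it was 50.97 CPM in Cspg4dsRED, 170.2 CPM in Acta2GFP and 633 CPM in the 9 cells of PdgfrbGFP. Clusters 7 and 8 overlapped through those 9 cells, whose pericyte markers summed to 8974 CPM against 2486 and 2859 CPM in the other sums of cluster 7, and the part of these cells in the Fabp4 level was not tested. The fibroblast sums lay below all of these values, at 40.9 CPM or less, apart from 153.6 CPM in the 7 cells of PdgfrbGFP in cluster 3. In that sum a single cell carried 98.5% of the Fabp4 counts, and without it the sum held 2.70 CPM. Fabp5 in cluster 8 was 29.1 CPM in Acta2GFP, 171.8 CPM in C57BL6, 200.5 CPM in Cspg4dsRED and 477 CPM in PdgfrbGFP. It was found in 71.8% of cluster 8 cells after thinning (65.1 to 77.6%) and in 17.1% of cluster 7 cells (11.3 to 24.9%). These shares pool strains in unequal numbers. Within strains the share was 40% in cluster 8 against 15.2% in cluster 7 for Acta2GFP, 72.4% against 13.5% for Cspg4dsRED and 82.2% against 44.4% for PdgfrbGFP. Fabp3 averaged at most 16.6 CPM in any cluster. Of its 50-base stretches, 37.3% also occur in the pseudogene Fabp3-ps1, Zcchc17 or Gm10570, so its counts are uncertain. The 44.4 CPM of the PdgfrbGFP sum in cluster 3 came from 1 cell.

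**Figure D2:**
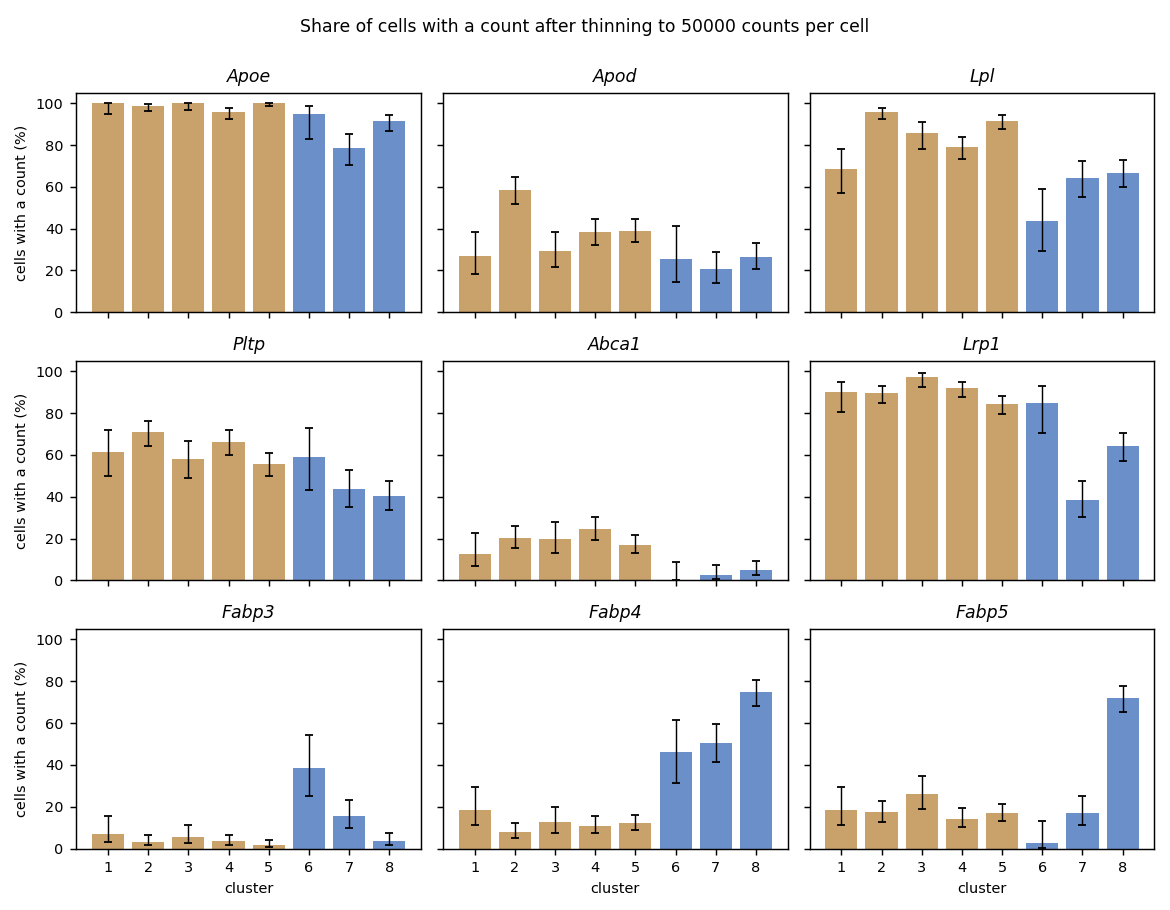
Share of cells with at least 1 count of each gene, by cluster (x axis), after thinning every cell to 50000 counts; bars are percent of cells over all strains and error bars are 95% Wilson intervals, which cover counting error only. Fabp5 was found in 17.1% of cells in cluster 7 and 71.8% in cluster 8, and Apoe was found in 78.6% of cells or more in each cluster.

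Fabp4 and Fabp5 are also known from endothelial cells, and 7 endothelial markers were followed beside them. The sorts of all strains used CD31 staining to keep endothelial cells out, and cells with a plain endothelial or immune signature had been removed by the authors. The summed level of the 7 markers in cluster 8 lay between 3.53 and 54.4 CPM, below the Fabp4 level in each strain. In Acta2GFP, where it was highest, it lay above the Fabp5 level of 29.1 CPM. When only cells with no count of these 7 genes were kept, Fabp4 in cluster 8 was 634 CPM in C57BL6 (19 cells) and 977 CPM in PdgfrbGFP (31 cells), and Fabp5 was 167.8 and 495 CPM. Under 3 such cells were left in Acta2GFP and in Cspg4dsRED, which gave no value. The part of endothelial RNA in the Fabp4 and Fabp5 levels was not tested in any strain. Of the adipocyte markers, Adipoq, Plin1, Cidec, Cfd and Retn were at 0 counts in the sums of cluster 8. The 9 cardiomyocyte markers summed to 258.5 to 418 CPM in cluster 8 and 1368 to 1922 CPM in cluster 7, where Pln, a gene also used by smooth muscle, supplied 1062 to 1276 CPM. Fabp3 followed neither Fabp4 nor Fabp5, at 0.27 to 5.82 CPM in cluster 8 and 6.38 to 13.7 CPM in cluster 7. Like the cardiomyocyte markers, it was lower in cluster 8 in 3 of 3 shared strains (log2 difference -1.55 ± 1.67, SE, adjusted p = 0.989, edgeR). The PdgfrbGFP counts of Fabp3 in cluster 7 came from 1 cell.

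Levels between genes were compared per kilobase. On exon union length, cluster 8 held 161.1 CPM per kb of Fabp4 against 92.01 of Apoe in C57BL6, 81.3 against 9.75 in Cspg4dsRED and 169.8 against 56.6 in PdgfrbGFP. In Acta2GFP the order was turned, with 56.5 CPM per kb of Fabp4 and 673.8 of Apoe. On the longest coding transcript the means over the 4 strains were 316 ± 474 CPM per kb for Apoe and 587 ± 284.4 for Fabp4 (SD). In cluster 5 the order on coding transcripts was Apoe (1780 ± 398), Lpl (406 ± 59.6), Apod (135.1 ± 21.3) and Pltp (100.3 ± 25.7 CPM per kb, n = 2).

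How evenly cells contributed differed between the genes. The cell with the most counts supplied a median of 9.88% of a sum for Apoe and 15.4% for Lrp1, but 49.5% for Abca1, 49.2% for Fabp4 and 52.4% for Fabp3. A single cell supplied over 50% of the counts in 2 of 27 Apoe sums, 4 of 27 Lrp1 sums, 13 of 27 Fabp4 sums, 11 of 24 Abca1 sums and 14 of 25 Fabp3 sums with a count. In cluster 8, where Fabp4 was high, its top cell carried 5.23% of the sum in PdgfrbGFP, 9.23% in C57BL6, 19.4% in Acta2GFP and 25.3% in Cspg4dsRED.

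**Figure D3:**
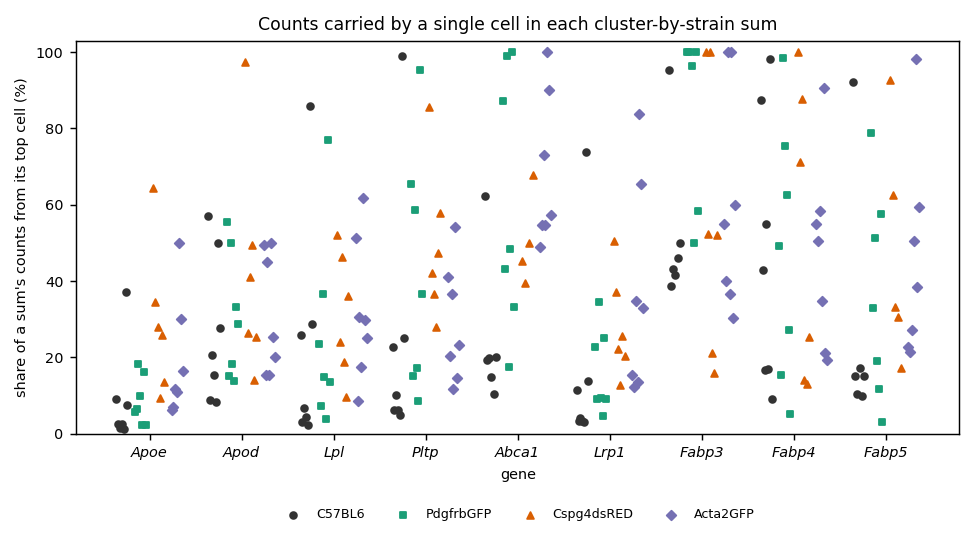
Share of the counts of each cluster-by-strain sum (points, coloured and shaped by strain) that came from the single cell with the most counts, for the 9 genes (x axis). The median over sums was 9.88% for Apoe and 15.4% for Lrp1, whereas it was 49.5% for Abca1, 49.2% for Fabp4 and 52.4% for Fabp3.

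The first comparison asked which of the genes separate fibroblasts from mural cells. In fibroblasts (clusters 1 to 5) Lpl was 5.23-fold higher, Lrp1 3.12-fold, Apod 8.69-fold and Apoe 3.94-fold higher than in mural cells (clusters 6 to 8), and Fabp4 was 31.2-fold lower. These 5 of 9 genes passed an adjusted p of 0.05 in edgeR's quasi-likelihood test over 4 strains, beside 5.93% of the 15117 genes tested. Of them, 4 were higher in fibroblasts, where the background was 3.47%, and 1 was lower, where it was 2.45%. All 9 genes passed the filter on low counts. The test had no strain term, so that the fibroblast and mural sums of a strain were not paired. With strain as a block, Lpl, Lrp1 and Fabp4 kept their calls and Apoe and Apod did not. The clusters were drawn by the authors from these same counts, so that the p values describe a separation the clustering may itself have used, and they measure only the spread between the strains.

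Lpl in fibroblasts was 651 CPM in Acta2GFP, 681 CPM in Cspg4dsRED, 1052 CPM in C57BL6 and 1304 CPM in PdgfrbGFP. In mural cells it was 150.8, 207.6, 197.5 and 155.4 CPM in the same order. No mural sum reached the lowest fibroblast sum, and the log2 difference was 2.39 ± 0.33 (SE, n = 4 strains, adjusted p = 0.00232, edgeR). Lrp1, the endocytic receptor, behaved likewise, with 574 to 931 CPM in fibroblasts and 210 to 317 CPM in mural cells. Its log2 difference was 1.64 ± 0.26 (SE, adjusted p = 0.00487, edgeR) and it was higher in 4 of 4 strains.

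Apoe in fibroblasts was 957 CPM in Cspg4dsRED, 1575 CPM in Acta2GFP, 1764 CPM in PdgfrbGFP and 2447 CPM in C57BL6. The mural sums were 353, 691, 118.3 and 579 CPM in the same order and did not overlap with them. Without cluster 6, which held no PdgfrbGFP cells, the mural level of Apoe was 70.5 CPM in Cspg4dsRED, 660.8 CPM in Acta2GFP and 197.3 CPM in C57BL6, and the log2 difference was then 2.70 (adjusted p = 0.0321, edgeR). With cluster 6 the log2 difference was 1.98 ± 0.50 (SE) and its adjusted p was 0.0446 in edgeR. Apod ran from 99.9 to 428 CPM in fibroblasts and from 6.10 to 53.3 CPM in mural cells, a log2 difference of 3.12 ± 0.75 (SE, adjusted p = 0.0372, edgeR). Both calls stood close to the threshold: with strain as a block the adjusted p was 0.066 for Apoe and 0.0515 for Apod. Leaving out any strain raised them to between 0.0867 and 0.165 for Apoe and between 0.0628 and 0.143 for Apod, whose log2 difference ran from 2.30 without Cspg4dsRED to 3.85 without C57BL6. In each of these fits both genes stayed higher in fibroblasts.

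Fabp4 was the gene with the largest difference of the 9. In mural cells it was 101.3 CPM in Cspg4dsRED, 186.7 CPM in Acta2GFP, 639 CPM in C57BL6 and 750 CPM in PdgfrbGFP. Fibroblasts held 23.97, 5.61, 12.7 and 13.6 CPM in the same order, so that each mural sum lay above each fibroblast sum. The log2 difference was -4.97 ± 0.76 (SE, adjusted p = 0.00455, edgeR), and -5.69 without Cspg4dsRED. Fabp5 was lower in fibroblasts in 4 of 4 strains, but with 22.1 to 444 CPM in mural cells against 14.97 to 26.6 CPM in fibroblasts the groups overlapped. Its log2 difference of -3.19 ± 0.86 (SE) had an adjusted p of 0.0586 in edgeR, which became 0.0384 without cluster 6, 0.0321 after thinning and 0.000982 in DESeq2, but 0.216 in limma-voom and 0.111 with strain as a block. Leaving out 1 strain gave an adjusted p of 0.0722 to 0.21, and the log2 difference was -2.21 without PdgfrbGFP.

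The other 3 genes did not pass. Abca1 held 43.5 to 57.7 CPM in fibroblasts and 0.34 to 25.4 CPM in mural cells without overlap, and its log2 difference of 2.80 ± 1.16 (SE) had an adjusted p of 0.243. The highest mural value belonged to Acta2GFP, and without that strain the log2 difference was 5.17 and the adjusted p 0.0449 (edgeR), while limma-voom called Abca1 with all strains (0.0128). Pltp overlapped between the classes, at 0.52 ± 0.39 (SE, adjusted p = 0.605). Fabp3 held 0.23 to 14.3 CPM in mural cells and 1.57 to 4.67 CPM in fibroblasts, a log2 difference of -1.28 ± 1.12 (SE, adjusted p = 0.673).

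**Figure D4:**
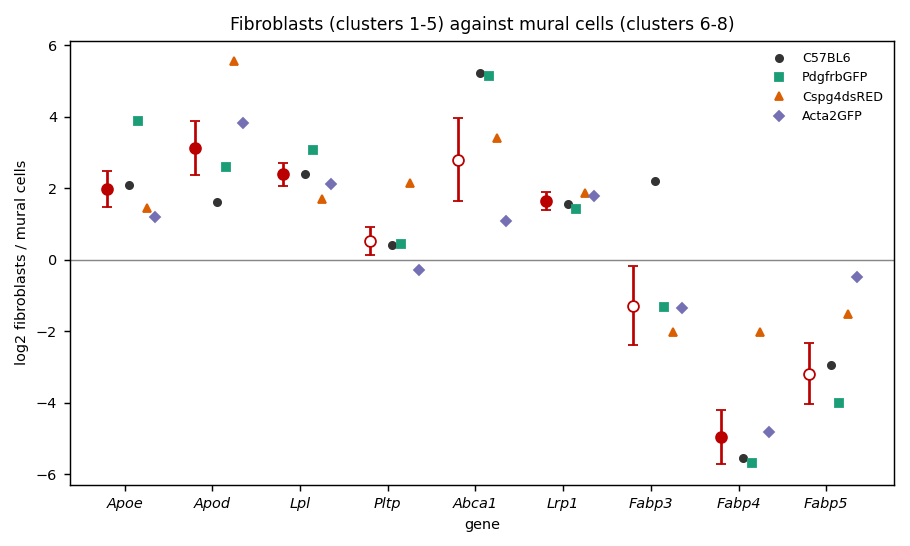
Difference between fibroblasts and mural cells (y axis, log2) for each gene: red circles with bars are the edgeR estimate ± SE, filled where the adjusted p was under 0.05, and the other symbols are the 4 strains' own log2 differences with a pseudocount of 1 CPM. Lpl, Lrp1, Apoe and Apod lie above 0 in 4 of 4 strains and Fabp4 lies below 0 in 4 of 4.

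Depth and the markers of other cell types were followed beside this comparison. Mural sums included cluster 8, whose median cell held 167874 counts against 258505 to 349816 in the fibroblast clusters, and thinning all cells to 50000 counts gave 6 of the 9 genes past the threshold, Fabp5 being added, beside 8.25% of all genes tested. When only cells with no endothelial marker count were kept, which left 73 of the 353 mural cells, Fabp4 alone passed of the 8 genes that could be tested, beside 2.18% of all genes tested. There Lpl differed by 1.89 and Lrp1 by 1.5 on the log2 scale (adjusted p = 0.0613 for each, edgeR). Apoe differed by 1.65 (adjusted p = 0.354, edgeR) and Apod by 2.32 (0.151). Keeping only cells with no count of 10 immune markers, some of which mark macrophages that also make Apoe, gave a log2 difference of 2.00 for Apoe (adjusted p = 0.0538, edgeR). Without cluster 6 alone, and without clusters 1 and 6, 6 of the 9 genes passed, Fabp5 being added, beside 7.7% and 7.27% of all genes tested. Without cluster 6 the log2 difference was 2.34 for Lpl, 1.73 for Lrp1, 3.03 for Apod and -5.05 for Fabp4.

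Beyond the 9 genes, 100 of 140 other listed genes of lipid handling could be tested between fibroblasts and mural cells. Of these, 7 were higher and 4 lower in fibroblasts, and their median log2 difference was -0.0038 beside -0.022 over all genes, of which 3.47% were higher and 2.45% lower. By function, the lipoprotein receptors (14 tested) had 1 higher and 2 lower, the fatty acid uptake and activation genes (10 tested) 1 higher and 3 lower, the fatty acid and retinoid binding genes (4 tested) 2 higher, the cholesterol efflux genes (14 tested) 1 higher, sterol synthesis (24 tested) 1 higher and the lipid nuclear receptors (12 tested) 1 higher. Cd36, which is in 2 of these lists, was counted in both. No lipid droplet gene (12 tested), other apolipoprotein gene (2 tested) or lipase regulator (11 tested) passed in edgeR.

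Of the listed genes lower in fibroblasts, Cd36, a fatty acid translocase, had the largest difference. It held 1.62 to 17.6 CPM in fibroblasts and 103.3 to 472 CPM in mural cells, a log2 difference of -4.82 ± 0.78 (SE, adjusted p = 0.00587, edgeR). Cav1, a caveolar coat protein, differed by -2.54 (adjusted p = 0.0345, edgeR), Sorl1, a sorting receptor, by -3.87 (0.0141) and Acsl3, an acyl-CoA synthetase, by -2.09 (0.0424). Among those higher in fibroblasts, Slc27a3, a member of the fatty acid transport protein family, held 6.49 to 42.5 CPM against 0.12 to 0.59 CPM, with a log2 difference of 5.72 (adjusted p = 0.0106). Cebpa, an adipogenic transcription factor, differed by 4.74 (0.0393) and Lrp4, an LRP1-related receptor, by 3.38 (0.0419). Crabp1, which binds retinoic acid, differed by 5.72 (0.0255) at 0.66 to 4.44 CPM in fibroblasts. Cd36 passed in all 16 alternative fits, those without each strain included. Crabp1, Cebpa and Lrp4 lost their calls without any of the 4 strains (adjusted p from 0.062 to 0.198), as did Acsl3 without C57BL6, PdgfrbGFP or Acta2GFP, Cav1 and Slc27a3 without PdgfrbGFP, Cspg4dsRED or Acta2GFP, and Sorl1 without C57BL6 or PdgfrbGFP. With strain as a block Crabp1 (adjusted p = 0.0531), Cebpa (0.11), Lrp4 (0.107), Sorl1 (0.066) and Acsl3 (0.134) also missed the threshold, as did Cebpa (0.0556) and Cav1 (0.0578) without cluster 6.

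Cluster 1, the valve cluster, was compared with the other fibroblasts. Lpl and Pltp were lower in cluster 1 in 4 of 4 strains, without overlap, and Apoe was higher in 4 of 4 strains, but none of the 9 genes passed an adjusted p of 0.05 in edgeR, where 1.33% of 13201 genes did (0.561% higher and 0.773% lower in cluster 1, and 0.742% in all with strain as a block). At an unadjusted p under 0.05 there were 3 of the 9 and 1171 of all genes tested, and DESeq2 called 1 (Pltp) and limma-voom 1 (Lpl). Pltp held 39.99, 100.9, 25.9 and 55.4 CPM in cluster 1 of Acta2GFP, C57BL6, Cspg4dsRED and PdgfrbGFP, and a mean of 252.4 ± 70.1 CPM in clusters 2 to 5 (SD, n = 4). Its log2 difference was -2.14 ± 0.47 (SE, adjusted p = 0.0512, edgeR) and passed after thinning (adjusted p = 0.0229). Lpl differed by -1.78 ± 0.52 (SE, adjusted p = 0.164) and passed with plates as the unit (adjusted p = 0.0376). Apoe was 1.75-fold higher in cluster 1 (log2 difference 0.81 ± 0.36, SE, adjusted p = 0.534). Mural markers (Rgs5, Notch3, Mcam, Cspg4 and Des) and cardiomyocyte markers were higher in cluster 1 than in each other fibroblast cluster in 4 of 4 strains. The mural markers averaged 351 CPM against 51.6 to 178.3 CPM and the cardiomyocyte markers 209.7 CPM against 40.7 to 84.2 CPM. Their part in these levels was not tested.

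Of 94 other lipid genes tested for cluster 1, 2 were higher and 1 lower. Clu, which encodes the apolipoprotein clusterin, held 843 to 909 CPM in cluster 1 of Acta2GFP, C57BL6 and PdgfrbGFP and 4257 CPM in the 3 cells of Cspg4dsRED. The other fibroblasts held 26.5 to 136.7 CPM, a log2 difference of 4.62 ± 0.69 (SE, adjusted p = 0.00784, edgeR). The adjusted p of Clu rose to 0.0835 without Acta2GFP, 0.0581 without C57BL6 and 0.0602 without PdgfrbGFP. Cidea, a lipid droplet protein, held 8.67 to 31.1 CPM in Acta2GFP, C57BL6 and PdgfrbGFP and 110 CPM in the 3 cells of Cspg4dsRED, against 0.02 to 0.51 CPM. Its log2 difference was 8.34 ± 1.70 (SE, adjusted p = 0.0417, edgeR). Adipoq, Plin1, Cidec, Cfd and Retn were at 0 counts in cluster 1, and the adipocyte-associated gene Car3 averaged 18.7 ± 26.7 CPM. Ch25h, an oxysterol-forming enzyme, held at most 0.19 CPM in cluster 1 and 6.88 to 22.3 CPM elsewhere (adjusted p = 0.0491). Cidea lost its call without Acta2GFP, C57BL6 or PdgfrbGFP (adjusted p from 0.149 to 0.26), and Ch25h lost it without any strain and with strain as a block (0.158).

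Cluster 8 and cluster 7, the pericyte-marker and the smooth-muscle-marker cells, shared 3 strains. None of the 9 genes passed in edgeR, where 0.194% of 11867 genes did (0.691% with strain as a block). Of the genes called, 10 were higher (0.0843%) and 13 lower (0.11%) in cluster 8, or 12 and 33 with DESeq2's size factors. At an unadjusted p under 0.05 there were 2 of the 9 and 817 of all genes tested, and DESeq2 and limma-voom each called 0. Lrp1 was higher in cluster 8 in 3 of 3 strains, at 236.5 to 466 CPM against 7.85 to 76.9 CPM, with a log2 difference of 2.90 ± 0.84 (SE, adjusted p = 0.267). Pltp was higher in 3 of 3 strains as well (3.57 ± 0.96, SE, adjusted p = 0.219), and the log2 difference was 1.76 without Acta2GFP. The fibroblast markers were also higher in cluster 8 in 3 of 3 strains. They summed to 3334 against 776.5 CPM in Acta2GFP, 959.5 against 308.6 CPM in Cspg4dsRED and 1370 against 552.5 CPM in PdgfrbGFP. Their part in the Lrp1 and Pltp levels was not tested. Apoe differed by 1.97 ± 1.12 (SE, adjusted p = 0.868), and without Acta2GFP the sign turned to -0.51. Fabp4 differed by 0.49 ± 0.84 (SE, adjusted p = 0.989), a sign that turned to -0.18 with DESeq2's size factors, although Fabp4 was higher in cluster 8 within each of the 3 strains. Fabp5 differed by 1.76 ± 1.17 (SE, adjusted p = 0.945). Clu, the only other listed lipid gene to pass, was lower in cluster 8, at 9.60 to 39.1 CPM against 285.6 to 1005 CPM (log2 difference -5.10 ± 0.79, SE, adjusted p = 0.0292, edgeR). The adjusted p of Clu was 0.125 without Cspg4dsRED and 0.119 without PdgfrbGFP.

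Cluster 6 held 39 cells and rested on sums of 3 cells in C57BL6 and Acta2GFP. Apoe was 990 CPM in Acta2GFP, 995 CPM in Cspg4dsRED and 3425 CPM in C57BL6, all above the 3 sums of clusters 7 and 8 in the same strains. The log2 difference was 2.58 ± 0.75 (SE, adjusted p = 0.453, edgeR), which became 3.02 with an adjusted p of 5.88e-06 with strain as a block and 3.94 with an adjusted p of 0.00123 without Acta2GFP. Without C57BL6 it was 1.60 (adjusted p = 0.72, edgeR). The fibroblast markers of cluster 6 summed to 3108 CPM in Acta2GFP, 3223 CPM in Cspg4dsRED and 12490 CPM in C57BL6. In the sums of clusters 7 and 8 they lay between 308.6 and 3334 CPM, and their part in the Apoe level was not tested. No gene of the 8 that passed the filter was called in edgeR, where 0.033% of 12117 genes were (0.883% with strain as a block), and at an unadjusted p under 0.05 there were 1 of the 8 and 695 of all genes tested. DESeq2 and limma-voom called 0. Abca1 did not pass the filter. The Pltp level of 413 CPM in C57BL6 came to 99% from 1 cell and was 5.43 CPM without it. Fabp4 in cluster 6 was 22.2 CPM in Cspg4dsRED, 51.8 CPM in Acta2GFP and 174.4 CPM in C57BL6, of which 98.3% came from 1 cell.

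Within the main fibroblasts, clusters 2 to 5 were each compared with the other 3. In edgeR 0% of all genes were called in these 4 comparisons, and none of the 9 genes. At an unadjusted p under 0.05 in edgeR there were 641 of 13870 genes tested for cluster 2 and 895 of 14803 for cluster 3. There were 670 of 14104 for cluster 4 and 630 of 16214 for cluster 5. Among them were 1, 2, 3 and 2 of the 9 genes for clusters 2, 3, 4 and 5. DESeq2 called 1.22%, 2.61%, 1.29% and 0.789% of genes and limma-voom 0.0577%, 0%, 0.248% and 0%. Apoe in cluster 3 was 2866 CPM in Acta2GFP, 4042 CPM in PdgfrbGFP and 4317 CPM in C57BL6, against 1530 ± 514 CPM in clusters 2, 4 and 5 (SD, n = 3). These groups did not overlap, the log2 difference was 1.43 ± 0.25 (SE, adjusted p = 0.1825, edgeR), and with strain as a block the adjusted p was 0.000172, and 0.236% of genes were then called. Of the pericyte, smooth muscle and immune markers, only the pericyte markers were higher in cluster 3 in all 3 strains. In cluster 3 the pericyte markers summed to 321.9, 258.6 and 238.6 CPM in the same strains, against 68.6 to 195.2 CPM in the sums of clusters 2, 4 and 5 there. Smooth muscle markers reached 1447 CPM in Acta2GFP and 948 CPM in PdgfrbGFP but 75.2 CPM in C57BL6, where cluster 4 held 79.9 CPM. Immune markers were 99.5 CPM in C57BL6 and 142.9 CPM in PdgfrbGFP, against 2.21 to 58.4 CPM in clusters 2, 4 and 5 there. In Acta2GFP they were 0.55 CPM, against 23.3 CPM in cluster 2 and 10.4 CPM in cluster 4. Their part in the Apoe level was not tested. Apod in cluster 3 held 1.85 to 41.04 CPM against 183.9 ± 45.1 CPM, also without overlap (-2.83 ± 0.96, SE, adjusted p = 0.463). Lpl in cluster 4 was 354 to 553 CPM in its 4 strains against 1295 ± 369 CPM in clusters 2, 3 and 5, a log2 difference of -1.51 ± 0.26 (SE, adjusted p = 0.11, edgeR). DESeq2 called it (adjusted p = 4.7e-05), as did limma-voom (0.0399). In cluster 5, tested in 2 strains, Lpl was higher by 0.85 ± 0.26 and Apod by 1.11 ± 0.29 on the log2 scale (SE, adjusted p = 1.00 for both, edgeR). DESeq2 and limma-voom called none of the 9 genes for clusters 2, 3 and 5.

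The 2 larger C57BL6 plates could be compared within clusters 1 to 5. In cluster 5 they held 2935 and 2861 CPM of Apoe, 1468 and 1534 CPM of Lpl and 976 and 937 CPM of Lrp1. In cluster 3 Apoe was 4028 and 5036 CPM, and in cluster 4 it was 1715 and 1082 CPM. Lpl in cluster 1 was 247.3 CPM in 16 cells and 121.8 CPM in 3 cells. Cluster 3 also held 36.3 and 6.35 CPM of Apod and 40.2 and 85.8 CPM of Abca1.

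Over the 27 sums, the gene with the pattern most like that of Lpl was Cebpd (Pearson r = 0.86 on log2(CPM + 1), among 10326 genes with a mean of 10 CPM or more). For Lrp1 it was Pdia6 (0.93), for Apod Nrxn2 (0.83), for Pltp Scn7a (0.88), for Abca1 Bicc1 (0.88), for Fabp4 Gja4 (0.87) and for Fabp5 Steap4 (0.80). Fabp3 was below the mean level required. These are descriptions over sums that share strains and plates. Among the 9 genes themselves, Fabp4 had a negative r with Apoe (-0.57), Apod (-0.57), Lrp1 (-0.57), Lpl (-0.42) and Abca1 (-0.44), and a positive one with Fabp5 (0.51).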

How the data were processed

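Single cells from mouse hearts were sequenced by Smart-seq2 with single reads. According to the labels and the study's methods, the authors trimmed the reads, aligned them to GRCm38 (mm10) with TopHat2 and Bowtie, and counted them per gene with featureCounts. The annotation release and the strand setting are not given in the sources used here. The authors deposited these unscaled read counts for each cell, and no molecular identifiers were used. The 92 spike-ins (1.82% of counts) were left out. Clusters and strains came from the labels.

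Counts were summed per cluster and strain (3 cells or more) and scaled to CPM. Each comparison was tested in edgeR 4.0.16 (R 4.3.3) by the quasi-likelihood F test on sums per strain and side, with TMM scaling, filterByExpr at a minimum count of 10 and Benjamini-Hochberg adjustment over all genes tested. The main model held the side only, without a strain term. Alternatives used DESeq2 1.42.0 size factors or its test, limma 3.58.1 (voom), no filter, strain as a block, plates as units, 10 cells or more per sum, cells thinned to 50000 counts (2 shallower cells left out of shares), and single strains left out. Both sides of a comparison came off the 1 plate of each reporter strain, which is why the strain block counts as a pairing, whereas the C57BL6 sums of clusters 6 and 8 came off only 1 of the plates that held its fibroblasts. The deviations of the paired sums correlated at 0.125 to 0.271 in the comparisons of clusters 2, 3 and 4, but at 0.0227 to 0.191 for fibroblasts against mural cells. Scripts were tested on simulated data. All 9 genes were named, with up to 5 listed lipid genes per direction and comparison by size of change among those called, and the most similar genes per member. The genes and lists were chosen with earlier results of these data known. Replicates are strains, since no animal is named. The similarity ranking for Apoe is not reported here.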

Additional observations from a re-analysis of the deposited data

Results flagged for a closer look

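In 4 of the 36 groups of 4 strains examined, 1 strain lay further from the other 3 than Dixon's 95% critical value allows, and chance alone flags about 1 group in 20. Of these groups, 3 concern the 15 Acta2GFP cells of cluster 8. Apoe there was 1441 CPM against 20.9 to 196.7 CPM in the other strains, and 1338 CPM without its top cell. Pltp was 793 CPM against 95.3 to 132.1 CPM, and 683 CPM without its top cell. Lpl was 227.5 CPM against 130.6 to 135.4 CPM, and 188.7 CPM without its top cell. Beside these values the fibroblast, smooth muscle and pericyte markers of the same cells also stood apart from the other strains, with 3334, 4033 and 6942 CPM, and their part in the 3 levels was not tested.

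The remaining value was Apod in the 8 Cspg4dsRED cells of cluster 2, at 710 CPM against 226.3 to 238.9 CPM in the other strains. Its top cell carried 26.3% of the counts and the level without it was 626 CPM.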

How the results depend on the processing

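Of 1012 alternative values for single genes, 879 kept their direction and their side of the threshold, 77 lost a call, 21 gained one and 35 changed direction. Only a gene called in the main edgeR fit could lose a call, and most of the 1012 values belong to genes not called there. For fibroblasts against mural cells, Fabp4 passed in 16 of 16 alternatives and Lpl and Lrp1 in 15 of 16 each. Apod passed in 9 of 16 and Apoe in 8 of 16. With sums of 10 cells or more or means of single-cell CPM, 4.17% of levels (6 in number) moved by 1 SD or more. Strain is the only replicate, and cells per sum run down to 3.

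Between fibroblasts and mural cells, the 5.93% of genes called became 12.7% in DESeq2, 9.55% in limma-voom, 2.18% without cells with an endothelial marker count and 2.67% to 3.91% with 1 strain left out. Of the 9 genes 3 passed with strain as a replicate block (4.81% of all genes), 1 without endothelial-marker cells, 3 without immune-marker cells (4.79%) and 3 to 4 with 1 strain left out. Shares are of the genes tested in each fit, whose number differs between fits. The cell filters by marker and the fit without cluster 6 were chosen after seeing the data.

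For cluster 1, 1.33% became 5.22% in DESeq2, 2.93% in limma-voom, 0.742% with the block, 0.748% with 10 cells or more per sum, 0.3175% without endothelial-marker cells, 0.611% without immune-marker cells and 0.201% to 0.748% with 1 strain left out. Of the 9 genes 1 passed in DESeq2, in limma-voom, with plates as units and after thinning. With plates as units and after thinning, the number of all genes called stayed within 1.5-fold of that in the main edgeR fit. Fabp3 turned to -0.52 in limma-voom and -0.88 without immune-marker cells. Fabp4 turned to -0.0043 after thinning, -1.43 without endothelial-marker cells and -0.18 to 1.39 with 1 strain left out. Fabp5 turned to 0.29 after thinning.

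For cluster 8 against 7, 0.194% became 0.379% with DESeq2's size factors, 0.855% without the filter, 3.2% in DESeq2, 1.31% in limma-voom, 0.691% with the block, 0% with 10 cells or more and 0% to 0.987% with 1 strain left out. Without the filter 1 of the 9 genes passed. Fabp4 turned to -0.18 with the size factors and -0.18 in DESeq2, and Apoe ran from -0.51 to 2.34 with 1 strain left out.

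For cluster 6, 0.033% became 0.418% without the filter, 2.81% in DESeq2, 0.479% in limma-voom, 0.883% with the block, 0.168% after thinning and 0% to 0.495% with 1 strain left out. Of the 9 genes 1 passed without the filter and with the block, and 0 to 1 with 1 strain left out. Pltp turned to -0.037 without the filter, -0.14 in limma-voom, -0.038 with the block and -1.45 to 1.39 with 1 strain left out. Lpl turned to -1.45 in limma-voom, -1.34 with the block and -2.32 to 0.92 with 1 strain left out.

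For cluster 2 0% became 0.00736% without the filter, 1.22% in DESeq2, 0.0577% in limma-voom and 0.1765% with plates. Lrp1 turned to -0.058 in limma-voom, -0.19 with 10 cells or more and -0.19 to 0.33 with 1 strain left out, Fabp3 to -0.94 in limma-voom, -0.67 with the block, -0.19 with 10 cells or more and -0.19 to 1.04 with 1 strain left out, and Fabp5 to 0.085 after thinning.

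For cluster 3 0% became 0.0705% without the filter, 2.61% in DESeq2, 0.236% with the block, 0.135% with plates and 0.0082% after thinning, and 1 of the 9 genes passed without the filter, with the block and with plates. Lpl turned to 0.0091 with the size factors and 0.0095 in DESeq2, Pltp to -0.40 in limma-voom, and Lrp1 to -0.18 with 10 cells or more, -0.21 after thinning and -0.18 to 0.28 with 1 strain left out.

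For cluster 4 0% became 0.0184% without the filter, 1.29% in DESeq2, 0.248% in limma-voom, 0.159% with plates, 0.209% after thinning and 0% to 0.00657% with 1 strain left out, and 1 of the 9 genes passed in DESeq2, in limma-voom, with plates and after thinning. Lrp1 ran from -0.16 to 0.26 with 1 strain left out. For cluster 5 0% became 0.119% without the filter, 0.789% in DESeq2 and 0.00672% with plates. Abca1 turned to 0.12 with plates and Fabp4 to 0.022 after thinning.

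The cause of these changes was not tested. DESeq2's size factors shifted the median of all genes by 0.12 for cluster 6 and 0.15 for cluster 3 on the log2 scale, and limma-voom shifted it by -0.69 and -0.73 there, by -0.41 for cluster 1, by -0.15 for cluster 2 and by 0.21 for fibroblasts against mural cells. Sums of 10 cells or more gave no test for cluster 6, cells without endothelial markers none for cluster 8 against 7, and leaving out a strain none for cluster 5, which would rest on 1 strain.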
